A study of Mus musculus with 2 samples.

Results

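Ultraconserved regions are stretches of DNA that are identical in the human, mouse and rat genomes. Many of them are transcribed, from either strand, and their RNAs are then counted among the long non-coding RNAs unless the region lies in an exon of a coding gene. Regions inside coding genes often overlap the genes of RNA-binding and splicing proteins, whereas those between genes often lie near developmental transcription factors and act as enhancers. The array carried a probe for each strand of 481 such regions, named by the number of the region and a plus or minus sign. Described here are the minus-strand probes of 457 regions, out of 59709 probes on the array other than control and negative probes. They were chosen by name, as all minus-strand probes of ultraconserved regions outside a fixed list of 24 regions in or near RNA-processing genes. The measured values played no part in that choice. Whether regions outside the list also overlap such genes was not analysed here.

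RNA came from the lower lobe of the right lung of male BALB/c mice aged 8 weeks. The control group received saline, and the paraquat group received intraperitoneal paraquat, a herbicide that causes lung fibrosis, at 10 mg/kg once per day for 5 days. The lungs were taken on day 12, and by the labels 70% of the 10 paraquat mice had died. In each group, RNA of 3 mixed lungs was hybridized to 1 array. The comparison asks which transcripts of these regions differ between saline and paraquat lung, and with 1 array a group it allows no test and gives no error between mice. In mixed whole-lung RNA, fewer cells of a type and less RNA per cell cannot be told apart. None of 8 lung marker genes could be found by name among the probes, so the labelled tissue was not checked.

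Each probe was a single spot, whose brightness after background subtraction is called its signal below. Signals are given in pairs, the saline control first and paraquat second. The ± after a signal is the error that Feature Extraction, the scanner software, assigns to that 1 spot, and it says nothing about mice or hybridizations. The paraquat array was dimmer as a whole, with a median log2 signal of 4.60 over all probes against 5.43 for the control array, so differences were taken after quantile normalization. A log2 difference is the paraquat value minus the control value. A probe is called detected where its spot was marked as well above background. No spot of these probes was saturated. For 15 reference genes with repeated spots, the SDs of log2 signal within each array were combined. A difference between single spots then had an SD of 0.14 to 1.41 depending on the gene, at a median of 0.19. This is a scale for spots within an array and holds no variation between hybridizations. The assigned spot error of the log2 difference was 0.20 to 0.39 for the minus-strand probes that both arrays detected.

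PCR primers were at hand for the region uc.77, which is named together with Zeb2, the gene of a transcription factor of epithelial-mesenchymal transition. They are printed in the 5′ to 3′ direction because they bound the stretch of uc.77 that was measured by PCR:
uc.77 forward: ctgtcacactgctcccaaga
uc.77 reverse: tcagccaaagatgcttgaaa
The methods name random hexamers for the reverse transcription, and these prime cDNA on RNA of either strand. The array had a separate probe for each strand of this region, and the values of both stand in the strand comparison. The other regions are named by number only, and their probe sequences, coordinates and overlapping genes were not analysed here.

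Most of the minus-strand probes were dim. Spots of 455 of them were usable, and the spots of uc.404- and uc.460- were left out because they were marked as non-uniform on the paraquat array. The control array detected 157 (34.5%) of the 455 and the paraquat array 131 (28.8%), whereas of all probes these arrays detected 62.7% and 58.6%. Both arrays detected 115 of them, 42 were seen on the control array alone and 16 on the paraquat array alone, and 282 were detected on neither. As shares of the probes that either array detected, the control array alone accounted for 24.3% and the paraquat array alone for 9.25%, against 12.8% and 6.66% over all probes. Of the plus-strand probes of the same regions, the control array detected 33.9% and the paraquat array 30.0%, nearly as for the minus strand. As shares of those that either array detected, the control array alone accounted for 21.7% and the paraquat array alone for 11.4%. Of the minus-strand probes of the 24 RNA-processing regions, both arrays detected 18. The detected signals ran from 19.5 to 56751 with a median of 83.2 for the control, and from 13.7 to 13341 with a median of 47.5 for paraquat. On the control array 193 probes sat at 3.86, the value assigned where a signal is not positive and significant. They have no order among themselves.

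Among the 115 probes that both arrays detected, normalized signals correlated with Pearson's r of 0.92 and Spearman's rho of 0.85, and among all such probes with 0.92 and 0.87. This describes probes within 1 pair of hybridizations, not replicates. Within 2-fold lay 83 of the 115 (72.2%), against 71.2% of all 32274 probes that both arrays detected. Their median log2 difference was -0.18, with quartiles of -0.67 and 0.30, and 66 were below 0. The corresponding median over all probes was -0.04, and it became 0.09 with a 75th percentile shift and -0.83 with no normalization. The median of the 115 moved with it, to -0.07 and -0.99.

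At the 5-fold threshold of the study, and counting every minus-strand probe that either array detected, 9 (5.20%) were higher and 14 (8.09%) were lower with paraquat. Over all 40078 detected probes the shares were 5.54% higher and 4.56% lower. The split depended on the scaling. It was 10 higher and 9 lower after a 75th percentile shift, and 3 higher and 24 lower with no normalization. Shares of all probes were not counted under these scalings, so these counts are no result about the minus-strand probes. With no normalization the median log2 difference over all probes detected on both arrays was itself -0.83. Of the 23 probes, 20 had been detected by 1 array alone, so their fold rests on a signal near background. Once the undetected signal was set no lower than the lowest detected one of its array, 2 (1.16%) were still 5-fold higher and 6 (3.47%) still 5-fold lower, against 3.07% and 2.04% of all probes. At 3-fold, over the 115 probes that both arrays detected, 6 were higher (5.22%, all probes 7.52%) and 8 lower (6.96%, all probes 5.59%).

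Among the 115, uc.420- alone was 5-fold lower or more (0.870%, against 1.78% of all probes). The study associates this region with Ddx5, which encodes an RNA helicase, so regions of genes that act on RNA were not all removed. Its signals were 19786 ± 1979 and 2114 ± 211, so that its spot was among the brightest of these probes in saline lung, far above background in both. The log2 difference was -2.85 ± 0.20 (error of single spots), or 7.19-fold lower. Over 9 other settings it lay between -3.23 and -2.30, and the smallest, with the 75th percentile shift, fell just short of 5-fold.

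Only uc.204- and uc.436- were 5-fold higher or more among the 115 (1.74%, against 2.77% of all probes). Signals of 324 ± 32.7 and 1004 ± 100 were measured for uc.436-, a log2 difference of 2.43 or 5.39-fold. A correction for the place of the spot, which takes off the median difference of its 50 nearest detected neighbours of like brightness, left it at 2.39. For uc.204- the signals were 64.2 ± 7.50 and 246 ± 24.8, giving a log2 difference of 2.81 or 7.03-fold. Its spot lay in column 2 of 164, and the place correction brought it to 2.31, just under 5-fold. Thus uc.436- alone passed 5-fold with quantile normalization, with the 75th percentile shift and with the place correction.

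Several probes lay close to the threshold. On the higher side, uc.332- went from 84.5 ± 9.30 to 202 ± 20.5, which is 2.15 as a log2 difference. Its spot lay in column 5, and the place correction left 1.29. The log2 difference of uc.462- was 2.03 before and 2.13 after the place correction, with signals of 209 ± 21.2 and 465 ± 46.6.

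On the lower side, uc.3- went from 1075 ± 108 in saline to 127 ± 13.0 in paraquat lung. Its log2 difference was -2.24, and -2.10 with the place correction. The region numbered next to uc.332, uc.333, had a minus-strand probe that differed the other way, with signals of 139 ± 14.4 and 16.9 ± 3.74. Its log2 difference of -2.19 became -3.08 with the place correction, which is 8.48-fold lower. The probe of uc.77- was also just outside 5-fold and is described with its plus strand.

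The other probes next to the threshold were seen by 1 array alone, with signals of at most 35.3 there. Just inside it on the higher side were uc.35- and uc.391-, for which the bounds were 2.29-fold and 1.52-fold once the undetected signal was raised as above. Just inside it on the lower side were uc.61- and uc.97-, with bounds of 1.28-fold and 1.06-fold, and uc.450-, which had no bound above 1. Just outside it on the higher side were uc.135- and uc.251-, at least 2.67-fold and at least 3.15-fold higher.

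A few probes were clearly lit in saline lung and not detected in paraquat lung. Of 68 minus-strand probes with a control signal of 100 or more, 5 (7.35%) went undetected with paraquat. The same held for 1.64% of all 21769 such probes and for 0 of 61 plus-strand probes of these regions. The signals of uc.116- were 274 ± 27.7 and 2.67, at least 11.7-fold lower after normalization. Those of uc.136- were 237 ± 24.0 and 6.67, at least 10.1-fold lower. For uc.478- the pair was 219 ± 27.5 and 2.93, at least 9.37-fold lower, and for uc.24- it was 157 ± 16.2 and 3.74, at least 6.75-fold lower. These bounds set the control value against the lowest signal of any detected probe on the paraquat array, which was 13.2. The paraquat signals of uc.116-, uc.478- and uc.24- were no larger than their assigned errors of 2.69, 2.94 and 3.75.

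The fifth probe of this kind was uc.161-, with 56751 ± 5675 in saline lung and 9.31 in paraquat lung, at least 3276-fold lower. Of all 59625 probes with usable spots it was the only one whose signals differed by 1000-fold or more before normalization. Its spot bore no outlier mark on either array. The uc.161+ probe gave 110 ± 11.7 and 70.3 ± 7.65. As uc.161- had a single spot on each array, no other measurement of it can be set beside these.

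Probes that were detected with paraquat alone were dim. Of 41 minus-strand probes with a paraquat signal of 100 or more, 0 went undetected in saline lung, against 0.602% of all probes. The cut at 100 was made before normalization, and the paraquat array was dimmer, so it was stricter there. This count is therefore not directly comparable with that of probes lit in saline lung. The 16 probes detected with paraquat alone had paraquat signals between 16.4 and 35.3, and none of their bounds reached 5-fold. The largest bound was that of uc.251-, whose signals were 14.5 and 35.3 ± 4.99. Next came uc.441-, with 7.69 and 31.9 ± 4.37 and a bound of 2.84-fold, and uc.394-, with 5.54 and 31.9 ± 5.46 and a bound of 2.83-fold. In the other direction, the 42 probes detected in saline lung alone had a median signal of 28.9. For 35 of them the bound was under 2-fold, and for 7 it was 2-fold or more. With paraquat alone, 9 of the 16 bounds were 2-fold or more, at a median signal of 25.2.

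Of 18 probes that both arrays detected and whose control signal was 1000 or more, 14 (77.8%) lay below 0 on the log2 scale with quantile normalization and 8 (44.4%) with the 75th percentile shift, against 59.9% and 38.8% of all probes in this signal range. With quantile normalization 7 (38.9%) were 2-fold lower or more, and 1 was 2-fold higher or more. Of all 7160 probes in the range, the shares were 19.3% lower and 9.57% higher. The median log2 difference was -0.61 for the 18 and -0.18 for all probes of the range. With a 75th percentile shift these medians were 0.05 and 0.26, and with the place correction they were -0.36 and -0.12. In either setting 5 of the 18 (27.8%) were 2-fold lower or more, against 12.8% of all probes with the 75th percentile shift and 18.8% with the place correction. The sign of both medians thus depended on the scaling. Of 8 plus-strand probes of the same set of regions in this range, 4 (50%) were 2-fold lower or more with quantile normalization. Their median log2 difference was -1.15, and -0.81 with the 75th percentile shift. Among the 52 probes with a control signal under 100, 7 (13.5%) were 2-fold higher or more and 5 (9.62%) were 2-fold lower or more. Of all 10861 probes in that range, the shares were 22.4% higher and 4.29% lower. Both ranges were cut on the control signal, which itself enters the difference. Their shares are therefore given only beside those of probes in the same range.

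Besides uc.420- and uc.3-, the bright probes at 2-fold lower or more were uc.414-, uc.38-, uc.408-, uc.188- and uc.340-. The signals of uc.414- were 3210 ± 321 and 619 ± 62.0, a log2 difference of -1.73. Those of uc.38- were 4645 ± 465 and 1059 ± 106, a log2 difference of -1.59. For uc.408- the pair was 3840 ± 384 and 991 ± 99.1, with -1.38 on the log2 scale. All 3 were lower in each of the 9 other settings, the smallest difference being -1.03 for uc.408-. With the place correction, uc.188- (signals 6700 ± 670 and 2221 ± 222) went from -1.17 to -0.72, and uc.340- (signals 18525 ± 1853 and 7367 ± 737) from -1.08 to -0.76.

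A bright probe that differed the other way was uc.141-, with signals of 5177 ± 518 and 13341 ± 1334. This was the brightest kept minus-strand spot on the paraquat array. Its log2 difference was 1.68, or 3.21-fold higher, and over the 9 other settings it lay between 1.37 and 2.29.

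The remaining bright probes lay within 2-fold. On the lower side, uc.84- (18433 ± 1843 and 9890 ± 989), uc.308- (1299 ± 130 and 480 ± 48.1), uc.162- (11820 ± 1182 and 6630 ± 663) and uc.371- (10573 ± 1057 and 6132 ± 613) had log2 differences of -0.67, -0.67, -0.56 and -0.49. The differences of uc.75-, uc.465- and uc.268- were -0.37, -0.15 and -0.05, and that of uc.360- was 0.03. On the higher side, uc.472- and uc.18- stood at 0.57 and 0.47. Of these 10 probes, uc.308- and uc.18- alone kept their sign over the 9 other settings. Dimmer probes with the smallest differences were uc.232-, uc.12-, uc.40- and uc.287-, all between 0.01 and 0.03 on the log2 scale.

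For the strand comparison, detection and differences were set side by side for the probes of a region, and levels of different probes were not compared. In saline lung 69 regions had both strands detected, 88 the minus strand alone and 85 the plus strand alone, and in paraquat lung these numbers were 51, 80 and 85. Where the minus strand was detected in saline lung, so was the plus strand in 43.9% of regions, and where it was not, in 28.5%. In 41 regions both arrays detected both strands. Across these, minus-strand and plus-strand log2 differences correlated with Pearson's r of 0.08 and Spearman's rho of 0.16, a description within the same 2 hybridizations. The signs were opposite in 17 regions, and in 28 the minus-strand difference was the lower. The minus-strand less the plus-strand log2 difference had a median of -0.41 and an SD over regions of 1.24, and with the place correction the median was -0.43.

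With quantile normalization, the largest contrast between strands was that of uc.77, the only region with differences of 3-fold or more in opposite directions. Its minus strand went from 279 ± 28.1 in saline to 32.8 ± 4.45 in paraquat lung, a log2 difference of -2.20 or 4.58-fold lower. Its plus strand went from 231 to 718, a log2 difference of 2.47. With the place correction the values were -2.14 and 2.44. Over the other settings that gave a value, the minus-strand difference stayed below 0, between -3.09 and -1.30. It was under 3-fold in the settings that shrink the folds of dim probes. These were normexp background correction with an offset of 50, at -1.30, and the background left in, at -1.47.

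In other regions, too, the strands differed in size or sign. The uc.420+ probe went from 203 to 52.5, a log2 difference of -1.04, beside the -2.85 of uc.420-. For uc.414 the plus-strand difference was -0.49, beside -1.73 on the minus strand. The uc.462+ probe had signals of 111 and 46.0 and a difference of -0.37, beside 2.03 on the minus strand. For uc.141 the values were -0.62 on the plus and 1.68 on the minus strand. With the place correction the plus-strand values of uc.414, uc.462 and uc.141 were 0.04, -0.19 and 0.00. The reverse also occurred, since uc.12- differed by 0.01 and uc.12+ by 2.08, although the latter became 0.63 with the place correction. In uc.34 both strands were higher, with 1.29 on the minus and 1.62 on the plus strand.

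The share of large differences varied with the place of a spot on the array. In columns 1 to 64, 5 of 51 detected minus-strand probes (9.80%) were 5-fold higher or more, and in the columns above 80 it was 4 of 112 (3.57%). Over all probes these shares were 10.3% and 2.58%. At 5-fold lower or more were 6 (11.8%) in columns 1 to 64 and 7 (6.25%) above column 80, against 4.55% and 4.42% of all probes. For probes that both arrays detected, the median log2 difference was 0.05 in columns 1 to 64 (n = 32) and -0.30 above column 80 (n = 76). With the place correction these medians were -0.22 and 0.00, so their order turned. Of the 115 probes, 1 (0.870%, all probes 2.03%) was then 5-fold higher or more, which was uc.436-. At 5-fold lower or more were 3 (2.61%, all probes 2.00%), namely uc.420-, uc.333- and a probe of column 39 from the list of studied transcripts below, which went from -1.18 to -2.41 on signals of 83.2 ± 9.18 and 20.4 ± 3.64.

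Some ultraconserved regions are known from earlier work. The minus-strand probes of 3 enhancer regions whose deletion left mice viable were all undetected on both arrays, the highest signals being 7.90 and 11.2. Of 16 regions whose transcripts have been studied in cancer or other diseases, 7 minus-strand probes were detected in saline lung, 6 of these also in paraquat lung, and 9 in neither. The log2 differences of the 6 ran from -1.18 to 0.40 with a median of 0.01, against -0.04 for all probes. With quantile normalization none of the 6 reached 5-fold, but with the place correction the lowest was 5.32-fold lower. The seventh probe was 7.75-fold lower as measured, one of the 14 counted above, but its bound was under 2-fold. One of the 6 was uc.160-, whose region is known for promoter methylation in tumours, with a log2 difference of 0.10. Among the 9, where no difference was detectable, were uc.8-, uc.63-, uc.73- and uc.230-. Which strand the earlier work studied was not checked here. A minus-strand probe does not measure RNA of the plus strand, so these values need not describe the studied transcripts.

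The processed values that the authors deposited held 92 of the 457 minus-strand probes. Among these, uc.204- at 2.69 and uc.420- at -2.94 on the log2 scale passed 5-fold. In the same values uc.436- stood at 2.30, just under 5-fold, uc.3- at -2.12 and uc.141- at 1.75.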

How the data were processed

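Lung RNA of the control and the paraquat group was measured on 1 one-colour Agilent mouse long non-coding RNA array each. Per the file headers, the authors deposited Feature Extraction 10.7.3.1 intensity values (background-subtracted signal, with its error, outlier marks and detection marks), with multiplicative detrending on the paraquat array only. The authors also deposited processed log2 values for 14331 probes, used here as an alternative. From the intensities, outlier-marked spots, control probes and 20 negative probes were left out, leaving 59625 probes. Their log2 signals were quantile-normalized in Python 3.11.15. The loess and normexp alternatives used limma 3.58.1 in R 4.3.3. Probes that neither array marked as well above background were filtered out. The number of arrays limits the precision, and no p-value is possible with 1 array a group.

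The probes and the gene lists were chosen with earlier results of these data known. Probes named are those detected on both arrays and past 5-fold with quantile normalization, the 75th percentile shift and the place correction, those detected on 1 array with the largest bounds, regions whose strands differed 3-fold or more in opposite directions, the 3 probes just inside and outside 5-fold in each direction, uc.77- and uc.420-, the lists of known regions, and the 5 smallest differences. The bright probes, uc.204- and the other strand examples were picked after their values were seen. The place correction used the 50 nearest detected probes in row, column and mean log2 signal. Tested on simulated data for 59625 probes, with 200 probes changed by 3 on the log2 scale, the quantile setting called 99% of these at 5-fold. With a simulated patch it called 85%, and 100% with the place correction. The changed probes were drawn from brighter probes only, with the same noise at every signal. The simulation thus says nothing about calls on dim or undetected signals. Its noise was smaller than the spread of the measured log2 differences, whose SD was 1.08 over all probes detected on both arrays. Its patch was larger than the measured contrast, with all-probe medians of 0.36 in columns 1 to 64 and -0.20 above column 80. High recovery thus followed from the settings and does not measure accuracy in these data. Genomic positions and probe sequences were not analysed here.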

Additional observations from a re-analysis of the deposited data

Results flagged for a closer look

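The probe uc.404- was left out of the comparisons because its spot was marked as non-uniform on the paraquat array. Its signal there was 105987 ± 11887, above every minus-strand probe that was kept, while in saline lung it was 3.86, the lowest value that array assigns. The spot lay in column 164, the outermost, and its 5 neighbours had paraquat signals of 5.20 to 37.8. The uc.404+ probe had signals of 27.6 with saline and 15.6 with paraquat. The value is given here as a signal outside the measurements compared above. Whether it comes from the probe or from the spot was not tested.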

How the results depend on the processing

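Each result rests on 1 array a group, so the values below show the weight of the processing and not the error between mice. No paired analysis was possible because each group holds 1 array. The main counts at 5-fold were 9 higher and 14 lower. They were 3 and 24 with no normalization, and 2 and 1 with quantile normalization over the probes detected on both arrays. Normexp background correction with an offset of 50 gave 0 and 2, and leaving the background in gave 0 and 3. The offset and the background left in both make the folds of dim probes smaller. The authors' processed values, which hold 92 of these probes, gave 1 and 1. The counts were 2 and 6 with dim signals raised to the lowest detected signal, and 2 and 1 for probes detected on both arrays. The 75th percentile shift gave 10 higher and 9 lower. Loess, a median shift, the place correction, no filter and keeping marked spots gave 7 to 10 higher and 10 to 17 lower. All of these lay within 1.5 times the main counts. Shares of all probes were counted only for the main setting, for raised dim signals and for probes detected on both arrays. The counts under other settings therefore show the weight of the processing and are no result about these probes. The median log2 difference was -0.99 with no normalization and between -0.18 and -0.02 otherwise. With the mark for signals positive and significant in place of well above background, 262 control and 244 paraquat signals counted as detected. The 3 probes past 5-fold and detected on both arrays had the same sign in all 9 other settings, and uc.420- was past 5-fold in 8 of these, uc.436- in 5 and uc.204- in 5. For the probes named by the rule that both arrays detected, 122 of 146 recomputed differences had the same sign. Where a signal lay near background, depth of signal limited the fold to a bound.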
